A study of Mus musculus with 4 samples.

Results

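ISG15 is a small ubiquitin-like protein, and 5 of the 6 genes described here encode ISG15 itself and the enzymes that attach it to other proteins and take it off again. They are Isg15, its activating enzyme (E1) Uba7, its conjugating enzyme (E2) Ube2l6, its ligase (E3) Herc6 and its protease Usp18. Uba1, the main E1 of ubiquitin, was set beside them as the contrast. The genes were picked by name, by a rule that has no threshold on their values, but with earlier results of these data known. They were taken from the 55487 annotated genes of the count table. All 6 were deep enough to be tested among the 13230 genes that passed the filter on low counts.

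Attachment of ISG15 runs through a chain of enzymes like that of ubiquitin: the E1 activates the modifier, the E2 carries it, and the E3 passes it to a lysine of a target protein. In mice Herc6 is the main ligase of this chain, the place that HERC5 holds in human cells. Usp18 cuts ISG15 off its targets and also binds the receptor chain IFNAR2, where it restrains signalling by type I interferon. All 5 genes are known as interferon-stimulated genes, read when the factor ISGF3 or other IRF proteins sit on interferon-stimulated response elements (ISREs) of their promoters. Uba1 serves ubiquitin in all cells and is not known as an interferon-stimulated gene.

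RNA was measured in 4 libraries of LPC-HRas cells, a line of mouse liver cancer cells grown in DMEM with serum and left unstimulated. Genotype was the labelled difference between the groups: 2 libraries came from controls and 2 from cells that overexpress UBXN9, a protein encoded by Aspscr1. The labels used here do not describe the control vector or how UBXN9 was introduced, and nothing in them says that the libraries of a group came from separate cultures, so p-values speak only of spread among libraries, which may be technical. The study asks, by its title, how UBXN9 bears on RNA exosome function and on control of liver tumours by T cells.

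Total counts ran from 21814969 to 26292686 per library. Aspscr1 counts were 2414 (control 1), 2538 (control 2), 7867 (UBXN9 1) and 10078 (UBXN9 2), higher where the labels give overexpression, and they cannot tell RNA of the native gene from that of an introduced copy. Levels are given as CPM, counts divided by a TMM-adjusted library size and brought to the same total. Of the 13230 genes tested, 669 were higher (5.06%) and 315 lower (2.38%) at an adjusted p under 0.05 in edgeR's quasi-likelihood test, and in 25.0% both UBXN9 libraries lay above both controls. Libraries of a group differed with gene length: across genes, the Spearman correlation with summed exon length was 0.340 for control 1 minus control 2 and -0.434 for UBXN9 1 minus UBXN9 2, against -0.0129 for the difference between groups. Of 2 RNAs without a poly-A tail, Rn7sk measured 1.68 CPM in control 1, 2.31 CPM in control 2, 5.48 CPM in UBXN9 1 and 26.4 CPM in UBXN9 2. The other, CT010467.1, measured 1985, 3429, 5529 and 8127 CPM in the same order. Their edgeR adjusted p values were 0.0488 and 0.0626. The part of these RNAs in the results below was not tested.

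Markers of blood and vessel cells were low, and those of stellate cells and fibroblasts were mixed. Of 10 lymphoid markers, 9 had at most 10 counts in every library and 4 (Cd3e, Cd3g, Cd8a and Nkg7) were at 0 in all; the exception, Lck, set the summed level of 4.72 to 5.19 CPM in controls and 9.69 to 11.2 CPM in UBXN9 libraries. Myeloid markers summed to 1.32 to 1.72 CPM in controls and 3.43 to 6.72 CPM in UBXN9 libraries, with 8 of 10 at no more than 10 counts. For Ptprc, the pan-leukocyte gene, each control had 0 counts, UBXN9 1 had 3 and UBXN9 2 had 1. Endothelial markers summed to 2.00 to 3.05 CPM in controls and 3.92 to 4.38 CPM in UBXN9 libraries. Stellate and fibroblast markers summed to 198.8 to 220.0 CPM in controls and 322.1 to 402.3 CPM in UBXN9 libraries. Most came from Pdgfrb (162 to 240 CPM over the 4 libraries) and, in the UBXN9 libraries, Col1a1. Col1a1 was called higher (log2 fold change 2.20, edgeR adjusted p = 0.00136). Of these 6 markers, 2 (Lrat and Reln) had at most 10 counts in every library, and Des had 13 to 28 counts. The hepatocyte gene Alb had 0 counts in all 4 libraries, and Spp1 and Sox9 gave nearly all of the summed level of the liver lineage list, 2387 to 2663 CPM in controls and 2942 to 3203 CPM in UBXN9 libraries. On the same list the keratin genes Krt18 and Krt19 were lower. Their log2 fold changes were -3.69 (edgeR adjusted p = 0.00972) and -1.69 (edgeR adjusted p = 0.0294). Krt18 was low, at 70 (control 1), 66 (control 2), 7 (UBXN9 1) and 3 (UBXN9 2) counts. Krt8 was not called (log2 fold change -0.55, edgeR adjusted p = 0.643). Among the immune markers, Lck (1.05, edgeR adjusted p = 0.0457) and Lyz2 (1.83, 0.0408) were called higher, and Csf1r (1.47, 0.434) was not. The part of these markers in the results below was not tested.

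All 5 genes of the ISG15 system were higher in UBXN9-overexpressing cells, against 5.06% of all genes tested, while Uba1 was not called. The members were chosen with earlier results of these data known, so this contrast is a description. The rises ran from 3.69-fold for the modifier to 10.1-fold for its E1. In each of the 5 genes both UBXN9 libraries lay above both controls, as in 25.0% of all genes tested.

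Isg15, the modifier, lies on chromosome 4 (156199424 to 156200818, minus strand, GRCm38; ENSMUSG00000035692). It had 388 CPM in control 1, 367 CPM in control 2, 1606 CPM in UBXN9 1 and 1176 CPM in UBXN9 2. It was thus already abundant without overexpression, and the UBXN9 libraries differed from each other by more than the controls did. The mean rose from 377 ± 14.6 to 1391 ± 304 CPM (SD, n = 2), a log2 fold change of 1.88 (SE 0.22, 95% interval 1.37 to 2.40, edgeR adjusted p = 0.00362). The change was 2.09 without UBXN9 2 and 1.64 without UBXN9 1. A transcript of AC151275.1 matches the coding sequence of Isg15 at 95.2% identity over 481 bases, but it took 3 counts in UBXN9 1 and 0 in the other libraries.

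The stretch of 250 bases before the RefSeq start of Isg15 is shown because it carries the letters of the ISRE, the element through which interferon is known to act on these genes. Capitals mark the run covered by matches to the ISRE letters, which are GAAA and GAAA set apart by 2 bases of any kind, searched on both strands.
Isg15 promoter, chr4:156200819-156201068, minus strand, GRCm38.p6, RefSeq: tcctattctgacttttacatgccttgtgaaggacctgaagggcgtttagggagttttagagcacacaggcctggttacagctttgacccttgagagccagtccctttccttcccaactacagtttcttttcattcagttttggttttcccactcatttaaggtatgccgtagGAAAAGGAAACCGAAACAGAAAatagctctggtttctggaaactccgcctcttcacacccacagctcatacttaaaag
The run holds 3 overlapping matches, which begin 78, 72 and 66 bases before the start site. A match to these letters was present in 974 of 32817 promoter windows of the same length in the RefSeq table (2.97%). Of the 6 genes 5 had an entry there, and Isg15 was the gene of these with a match to the 10-letter ISRE. A match is a description of letters and not of bound protein.

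Uba7, the E1 that activates ISG15, lies on chromosome 9 (107975505 to 107984060, plus strand; ENSMUSG00000032596). It had 11.1 CPM in control 1, 10.4 CPM in control 2, 108 CPM in UBXN9 1 and 109 CPM in UBXN9 2. The libraries of each group lay close together and the groups were far apart. The mean rose from 10.8 ± 0.446 to 108 ± 0.915 CPM (SD, n = 2), a log2 fold change of 3.33 (SE 0.17, 95% interval 2.94 to 3.73, edgeR adjusted p = 0.00022). This was the largest change of the 6 genes, and 151 of the 13230 genes tested (1.14%) had a larger one. The predicted gene Gm20661 overlaps it on the same strand and had 0 counts in all 4 libraries.

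Near the start of Uba7 the letters of the shorter IRF core are found, and the site is shown with 10 bases on each side and the match in capitals. The core AANNGAAA was searched on both strands, it is contained in every ISRE match above, and here it reads on the minus strand.
Uba7 site, chr9:107975530-107975557, plus strand, GRCm38.p6, RefSeq: ctcagtctagTTTCACTTttggtttcct
The core was present in 21.3% of all promoter windows. The RefSeq start of Uba7 lies downstream of the gene start given above, so this site is inside the gene as GENCODE draws it. Isg15 held 4 such matches, 3 of them within its ISRE run. Ube2l6, Herc6 and Uba1 held no match to either set of letters in their windows. For the letters TTCNNNGAA of the gamma-activated site (7.01% of windows), 1 of the 3 windows of Uba1 held a match and the other members with an entry held none.

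Ube2l6, the E2 that takes ISG15 from Uba7, lies on chromosome 2 (84798828 to 84810335, plus strand; ENSMUSG00000027078). It had 70.8 CPM in control 1, 64.6 CPM in control 2, 419 CPM in UBXN9 1 and 391 CPM in UBXN9 2. The groups did not overlap, and the mean rose from 67.7 ± 4.40 to 405 ± 19.5 CPM (SD, n = 2). This was a 5.98-fold change, 2.58 on the log2 scale (SE 0.17, 95% interval 2.19 to 2.97, edgeR adjusted p = 0.000384). Its nearest relative Ube2l3, an E2 that works with ubiquitin, had a log2 fold change of -0.11 (95% interval -0.48 to 0.26, edgeR adjusted p = 0.768).

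Herc6, the ligase, lies on chromosome 6 (57581000 to 57664632, plus strand; ENSMUSG00000029798). It had 16.3 CPM in control 1, 12.8 CPM in control 2, 72.3 CPM in UBXN9 1 and 71.0 CPM in UBXN9 2. Here the controls differed more from each other than the UBXN9 libraries did. The mean rose from 14.6 ± 2.50 to 71.6 ± 0.933 CPM (SD, n = 2), a 4.91-fold change with a log2 value of 2.30 (SE 0.19, 95% interval 1.85 to 2.74, edgeR adjusted p = 0.000844). The transcript Gm45193 overlaps Herc6 on the same strand and had 4, 5, 16 and 0 counts in control 1, control 2, UBXN9 1 and UBXN9 2. Those counts compare with 282 to 1882 for Herc6 itself.

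Usp18, the protease that removes ISG15, lies on the same chromosome (121245906 to 121270917, plus strand; ENSMUSG00000030107). It had 99.0 CPM in control 1, 87.9 CPM in control 2, 680 CPM in UBXN9 1 and 540 CPM in UBXN9 2. The UBXN9 libraries were both over 5 times the higher control. The mean rose from 93.5 ± 7.85 to 610 ± 98.8 CPM (SD, n = 2), a 6.52-fold change with a log2 value of 2.71 (SE 0.20, 95% interval 2.24 to 3.17, edgeR adjusted p = 0.000555). The gene that takes the modifier off thus rose along with those that put it on.

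Uba1, the ubiquitin E1, lies on chromosome X (20658326 to 20683179, plus strand; ENSMUSG00000001924). It had 1113 CPM in control 1, 1295 CPM in control 2, 1268 CPM in UBXN9 1 and 1180 CPM in UBXN9 2. The groups overlapped: the UBXN9 libraries lay between the controls. Means were 1204 ± 128 and 1224 ± 61.8 CPM (SD, n = 2), with a log2 fold change of 0.02 (SE 0.19, edgeR adjusted p = 0.969). The 95% interval ran from 0.745-fold to 1.39-fold, and changes within it could not be told from none with 2 libraries a group. The sign of the Uba1 value turned with the scaling, to -0.07 with library size alone and -0.03 with upper-quartile factors.

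**Figure D1:**
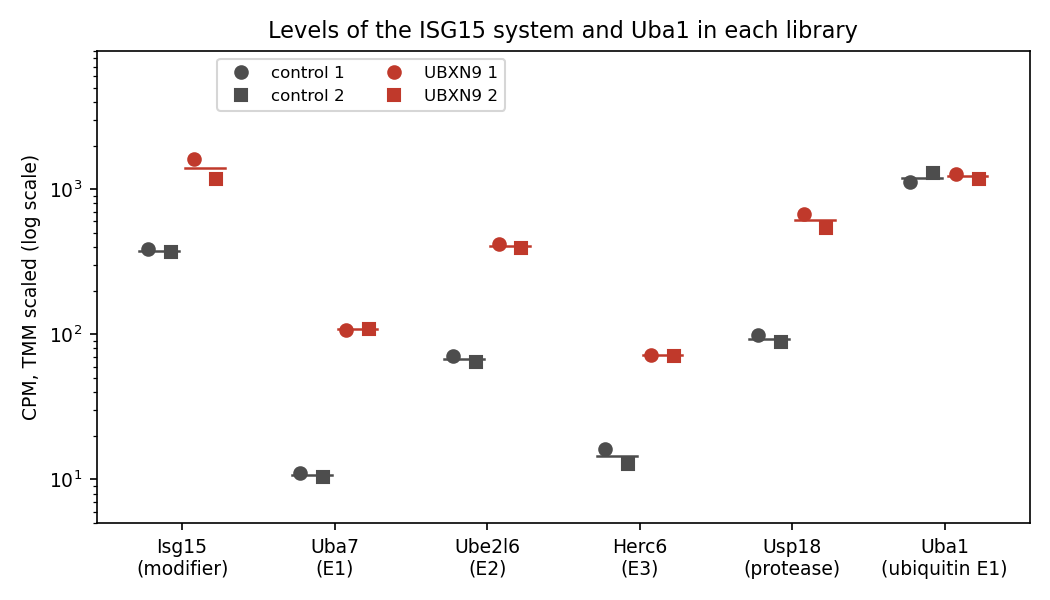
Level of each gene in each library, in CPM with TMM scaling on a log axis; grey points are controls, red points are UBXN9-overexpressing cells, circles are replicate 1, squares replicate 2, and short lines are the group means (n = 2). For the 5 genes of the ISG15 system both red points lie above both grey points, while for Uba1 all 4 points lie between 1113 and 1295 CPM.

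The rises within the system were of unequal size. The 95% intervals of Uba7 lay wholly above those of Isg15 and Herc6, and the intervals of the other pairs overlapped. Ratios of counts inside a library do not depend on library scaling. They are made from the same counts as the fold changes, so they restate the inequality and are not separate support for it. The genes also differ in summed exon length: 756 bases for Isg15, 2790 for Usp18, 6692 for Uba7 and 9292 for Herc6. Libraries of a group differed with gene length, as given above, and the part of this in the ratios was not tested. For every 100 counts of Isg15 there were 2.86 and 2.84 counts of Uba7 in the controls, against 6.71 and 9.28 in the UBXN9 libraries. This ratio was chosen after the values were seen. Usp18 stood at 25.6% and 24.0% of Isg15 in the controls and at 42.3% and 45.9% in the UBXN9 libraries. The mean log2 ratio of Usp18 to Isg15 was thus higher by 0.83, and in no library of one group did it reach the values of the other. Herc6 stood at 4.21% and 3.49% of Isg15 in the controls and at 4.50% and 6.04% in the UBXN9 libraries, a difference of 0.44 on the log2 scale that was larger than the SD of 0.30 between the UBXN9 libraries.

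Set against their ubiquitin counterparts, the E1 and the E2 of ISG15 had higher shares in UBXN9-overexpressing cells. Uba7 had 0.994% (control 1) and 0.806% (control 2) of the counts of Uba1, against 8.50% (UBXN9 1) and 9.24% (UBXN9 2), a 9.91-fold rise of the ratio. Ube2l6 had 30.0% (control 1) and 25.7% (control 2) of the counts of Ube2l3, against 176% (UBXN9 1) and 182% (UBXN9 2), so that their order in counts reversed. For each of these ratios the exact two-sided permutation test over the 4 libraries gave p = 0.333, the smallest it can give with 2 libraries a group.

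**Figure D2:**
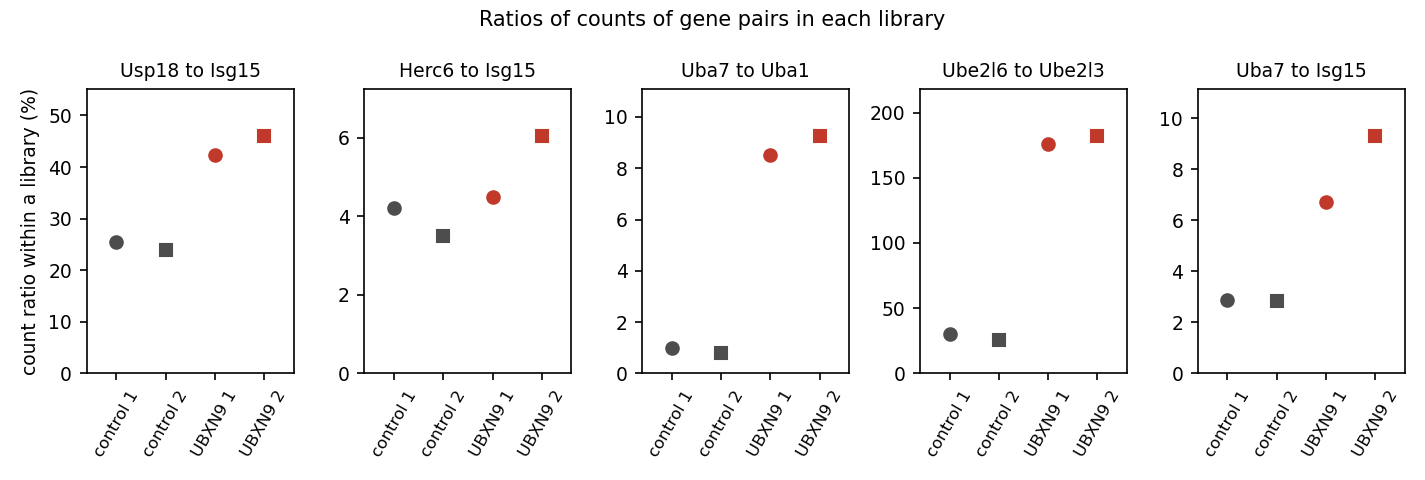
Ratio of the counts of 2 genes within each library, in percent, for 5 gene pairs with a separate linear axis from 0 for each; grey points are controls and red points UBXN9-overexpressing cells. In every pair both red points lie above both grey points, with the smallest separation for Herc6 to Isg15, from 4.21% in control 1 to 4.50% in UBXN9 1.

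Levels of different genes were compared as TPM, which divides by summed exon length and sets each library to the same total without TMM factors. In control cells Isg15 stood highest, at 1520 and 1321 TPM in control 1 and 2, and Uba1 followed at 685 and 732 TPM. Ube2l6 (105 and 88.1 TPM) and Usp18 (105 and 85.8 TPM) did not differ beyond their spread, and neither did Uba7 (4.90 and 4.25 TPM) and Herc6 (5.21 and 3.75 TPM), which were lowest. The E1 and the E3 were therefore the scarcest RNAs of the system in control cells.

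In UBXN9-overexpressing cells Isg15 stood at 5090 and 4414 TPM, which ranked 19th among annotated genes by mean level, against 122nd in control cells. Uba1 (630 and 695 TPM) lay above Usp18 (584 and 549 TPM), and Usp18 overlapped Ube2l6 (502 and 556 TPM). Uba7 (38.6 and 46.3 TPM) now lay above Herc6 (18.6 and 21.7 TPM). These orders depend on the length given to a gene. With the median length of its transcripts, Isg15 had 495.5 TPM in control and 1705 TPM in UBXN9-overexpressing cells and ranked 331st and 77th. On that scale Uba1 (1476 TPM) exceeded Isg15 in control cells, Herc6 (16.0 TPM in control and 73.8 TPM in UBXN9-overexpressing cells) exceeded Uba7 (4.56 and 43.4 TPM) in both groups, and Usp18 exceeded Ube2l6 in both groups, at 160.9 and 131.2 against 86.3 and 72.3 TPM in the controls and at means of 890.7 against 446 TPM in UBXN9-overexpressing cells.

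Genes whose pattern over the 4 libraries was most like that of each member were found by the Euclidean distance between log2 CPM values centred on their mean, among 9855 genes. For Isg15 they were Irf1, an interferon-inducible transcription factor (distance 0.138), and Apol9b (0.151). For Uba7 they were Susd4 (0.0750) and Apol6 (0.167), and for Ube2l6 they were Irf7, the factor that amplifies interferon genes (0.107), and Tor3a (0.108). For Herc6 the nearest was Irgm1, an interferon-inducible GTPase (0.0390), and for Usp18 they were Nmi (0.0980) and Irf7 (0.160). The members themselves were less alike: Ube2l6 was the 5th nearest gene to Usp18, but Uba7 ranked 1337th for Isg15. Counted from Uba7, at the same distance of 1.51, Isg15 ranked 154th, so the rank depends on the gene it is counted from. Herc6, Ube2l6 and Usp18 ranked 102nd, 177th and 233rd for Isg15. With 4 libraries in 2 groups, this measure mostly reflects the size of the change.

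Other genes tied to ISG15 were taken as a list of 13 ligases, proteases reported to react with ISG15, partners of Usp18 and chains of the receptor for free ISG15. Of the 11 tested, 3 were higher and 0 lower, and their median log2 fold change was 0.24 against -0.0056 over all genes tested; at an unadjusted p under 0.05 the counts were 4 and 1, and by DESeq2 2 and 0. Of all genes tested 5.06% were called higher. The number called on this list fell when a control was left out and rose when a UBXN9 library was left out. The number called over all genes tested moved in the same way. Stat2, which holds Usp18 at the interferon receptor, rose from 99.4 and 84.3 CPM to 268 and 281 CPM, 2.99-fold (edgeR adjusted p = 0.0023). Trim25, an E3 that can also use ISG15, rose from 186 and 158 CPM to 290 and 398 CPM, 2.00-fold (edgeR adjusted p = 0.0335, and 0.231 without control 2). Itgb2, a chain of the leukocyte integrin that binds free ISG15, was low, at 6 (control 1), 8 (control 2), 34 (UBXN9 1) and 41 (UBXN9 2) counts (edgeR adjusted p = 0.0297, 0.232 without control 1 and 0.119 without control 2). Its partner chain Itgal had too few counts to be tested. Usp16, a protease reported to act on ISG15, had a log2 fold change of 0.24 (edgeR adjusted p = 0.634).

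Of 11 genes of type I interferon signalling 7 were higher (0 were lower), against 5.06% of all genes tested called higher. Their median change was 0.79 on the log2 scale. Fewer were called higher when control 1 was left out, as over all genes tested. Irf3, an IRF on this pathway, had -0.02 on the log2 scale (edgeR adjusted p = 0.971). Irf7 rose from 103 and 101 CPM to 672 and 593 CPM, 6.22-fold (edgeR adjusted p = 0.000389). Irf9, a part of ISGF3, rose less, 1.64-fold (edgeR adjusted p = 0.0467, and 0.136 with a replicate block). That call was also lost without control 1 and without control 2, with adjusted p values of 0.443 and 0.281. Ifnb1, which encodes interferon beta, was at 2 (control 1), 5 (control 2), 28 (UBXN9 1) and 45 (UBXN9 2) counts (edgeR adjusted p = 0.0206, and 0.109 without control 1). The receptor genes Ifnar1 and Ifnar2 did not pass, at -0.15 and 0.44 on the log2 scale.

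Of 15 genes whose proteins are reported as targets of ISG15, 7 were higher (5.06% of all genes tested were) and 0 were lower, and the median change was 0.79 on the log2 scale. The list holds interferon-stimulated genes beside genes of other kinds. Mx1, an antiviral GTPase, rose from 6.64 and 4.85 CPM to 122 and 132 CPM, by 4.46 on the log2 scale (edgeR adjusted p = 0.00022). The RNA sensor Ifih1 rose 4.10-fold (edgeR adjusted p = 0.00343). Among those that did not pass, Irf3, Plcg1, Mapk3, Becn1, Ube2n and Ube2e1 had log2 fold changes from -0.22 to 0.35, and Eif2ak2 had 1.14 (edgeR adjusted p = 0.0972).

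Relatives of the members that serve ubiquitin or other modifiers were counted in the same way, and 5.06% of all genes tested were called higher and 2.38% lower. Of 9 E1 genes, Uba1 included, Atg7, the E1 of autophagy, was the one called, rising 1.65-fold (edgeR adjusted p = 0.0475, and 0.142 with a replicate block, 0.462 without control 1 and 0.284 without control 2). Of 29 ubiquitin E2 genes 0 were called by edgeR, DESeq2 or limma-voom, and 2 were higher and 2 lower at an unadjusted p under 0.05. By edgeR some of them were called when a UBXN9 library was left out, in settings where more of all genes tested were called too. Of the 4 other HERC ligases 0 were called by any of these tools, also at an unadjusted p under 0.05, and Herc3, the neighbouring family member on chromosome 6, had a log2 fold change of 0.10. Without UBXN9 2 some of the 4 were called lower, in a setting where more of all genes tested were called lower too. Herc1 had a log2 fold change of -0.74 there. Of 40 ubiquitin-specific proteases tested beside Usp18, 3 were higher and 0 lower, a share near that of all genes. The number of proteases called fell without control 2 and rose without either UBXN9 library, as did the number over all genes. Without UBXN9 2 some were called lower. Usp25 rose from 7.44 and 4.63 CPM to 15.5 and 26.3 CPM, 3.46-fold (edgeR adjusted p = 0.0258, and 0.0563 without control 2), Usp43 rose 2.97-fold (edgeR adjusted p = 0.00534), and Usp12 rose 1.70-fold (edgeR adjusted p = 0.0318, 0.088 with a replicate block, 0.153 without control 1 and 0.42 without control 2).

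The other modifiers and their chains were read against the same shares of all genes. Of 18 ubiquitin and ubiquitin-like modifier genes tested beside Isg15, 0 were called by edgeR, DESeq2 or limma-voom, and 1 was higher and 1 lower at an unadjusted p under 0.05. Ubd, which encodes the cytokine-inducible modifier FAT10, was at 0 in each control, 2 in UBXN9 1 and 3 in UBXN9 2, and was too low to be tested. Uba6, the E1 of FAT10, had a log2 fold change of 0.66 with 3.73 and 12.6 CPM in the UBXN9 libraries (edgeR adjusted p = 0.536, and 3.65e-05 without UBXN9 1). Of 8 genes of the NEDD8 chain, 17 of the SUMO chain and 8 of the UFM1 chain, 0 were called by any of the 3 tools, and at an unadjusted p under 0.05 only Nedd8 was lower, with a log2 fold change of -0.38. With a UBXN9 library left out, edgeR called some genes of the modifier, NEDD8 and SUMO lists. More of all genes tested were called in those settings too. Of 12 genes of the ATG8 and ATG12 chains, edgeR called 1, Atg7, DESeq2 called 2 and limma-voom 0. Atg3, the E2 of these chains, had a log2 fold change of 0.76 (edgeR adjusted p = 0.0782, DESeq2 adjusted p = 0.0324). None of these lists was tested as a set.

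**Figure D3:**
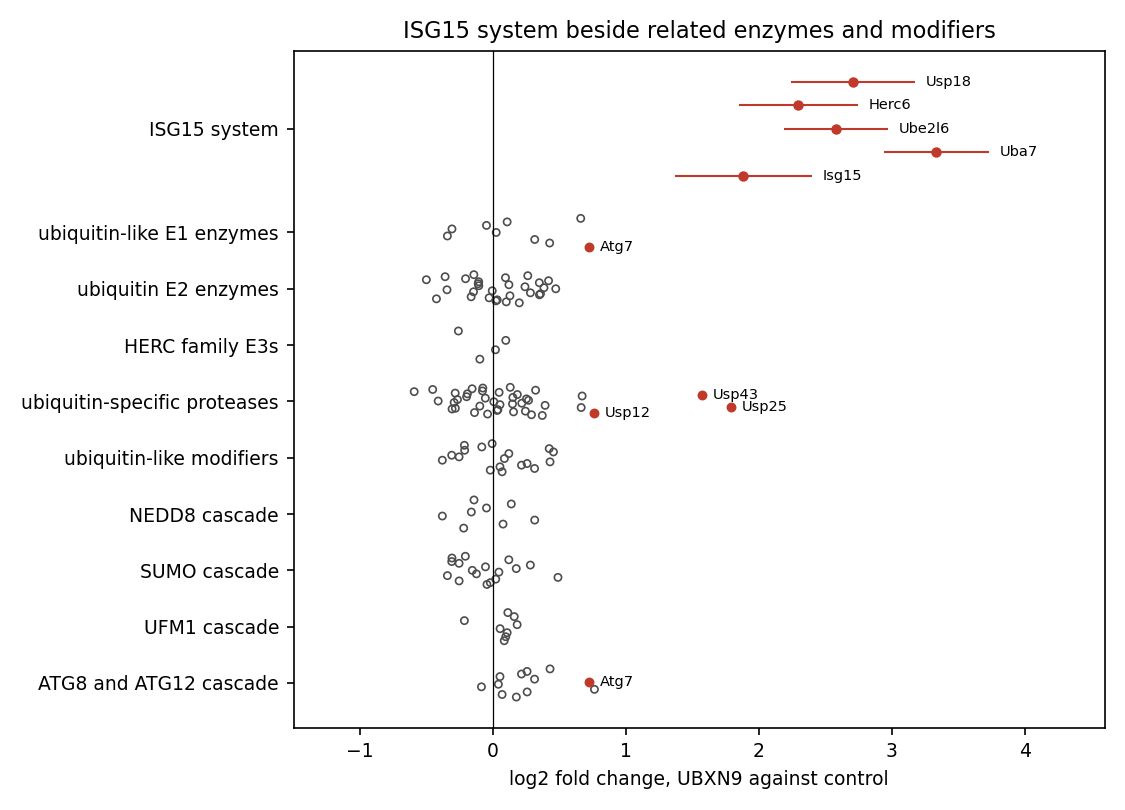
Log2 fold change of UBXN9-overexpressing against control cells for the 5 genes of the ISG15 system, with 95% intervals, and for the tested members of 9 lists of related genes; filled red points have an edgeR adjusted p under 0.05 and open points do not, and Atg7 is on 2 lists. The ISG15 system spans 1.88 to 3.33, while the genes of these 9 lists lie between -0.59 and 1.79. Not drawn are the FAT10 chain, other genes tied to ISG15, type I interferon signalling and reported ISG15 targets. The last 3 of these lists reach 2.47, 3.40 and 4.46, within or above the span of the ISG15 system.

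Flanking genes were compared as a rule chosen after the values were seen. Of the 12 nearest tested genes on either side of the 6 members, 1 was called, where 7.44% of all genes tested were called in either direction. This was AW011738, 2486 bases from Isg15 on its upstream side, which rose from 13.2 and 9.21 CPM to 25.5 and 25.6 CPM, 2.27-fold (edgeR adjusted p = 0.027, and 0.249 without control 2). Agrn, on the other side of Isg15, had a log2 fold change of 0.63 (edgeR adjusted p = 0.099). Traip and Inka1 beside Uba7 did not pass, at -0.33 and 0.15 on the log2 scale, and Inka1, on the minus strand, ends 163 bases from the end of Uba7. Serping1 before Ube2l6, Ppm1k before Herc6 and Tuba8 before Usp18 had larger values that did not pass, at 1.73 (edgeR adjusted p = 0.0638), 1.15 (0.2) and -0.83 (0.0852) on the log2 scale. The genes beside Uba1, Rbm10 and Cdk16, had log2 fold changes of -0.28 and -0.13.

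All 5 genes of the ISG15 system passed at an adjusted p under 0.01 too, where 2.34% of all genes tested were called higher. In each of 14 other settings, which were other scalings, filters, tools, replicate blocks and single libraries left out, the 5 genes again had an adjusted p under 0.05, and Uba1 in 0 of the 14. The share of all genes tested that was called higher in those settings was 5.25% with RLE factors, 4.38% with upper-quartile factors, 3.48% with library size alone, 5.03% with no filter, 5.04% with at least 5 CPM in 2 libraries and 5.07% with a robust prior. It was 6.0% with DESeq2, 4.97% with limma-voom, 4.84% with a replicate block and 13.4% with a crossed one. Leaving out control 1 gave 3.71% and leaving out control 2 gave 2.69%; for UBXN9 1 it was 11.6% and for UBXN9 2 it was 10.9%. Isg15 moved most, between 3.12-fold without UBXN9 1 and 4.26-fold without UBXN9 2. Uba7 moved least, between 9.47-fold and 10.4-fold. These settings share libraries, so they are not independent of each other. Where a library was left out, its group held 1 library, which was assumed to vary like the other group.

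**Figure D4:**
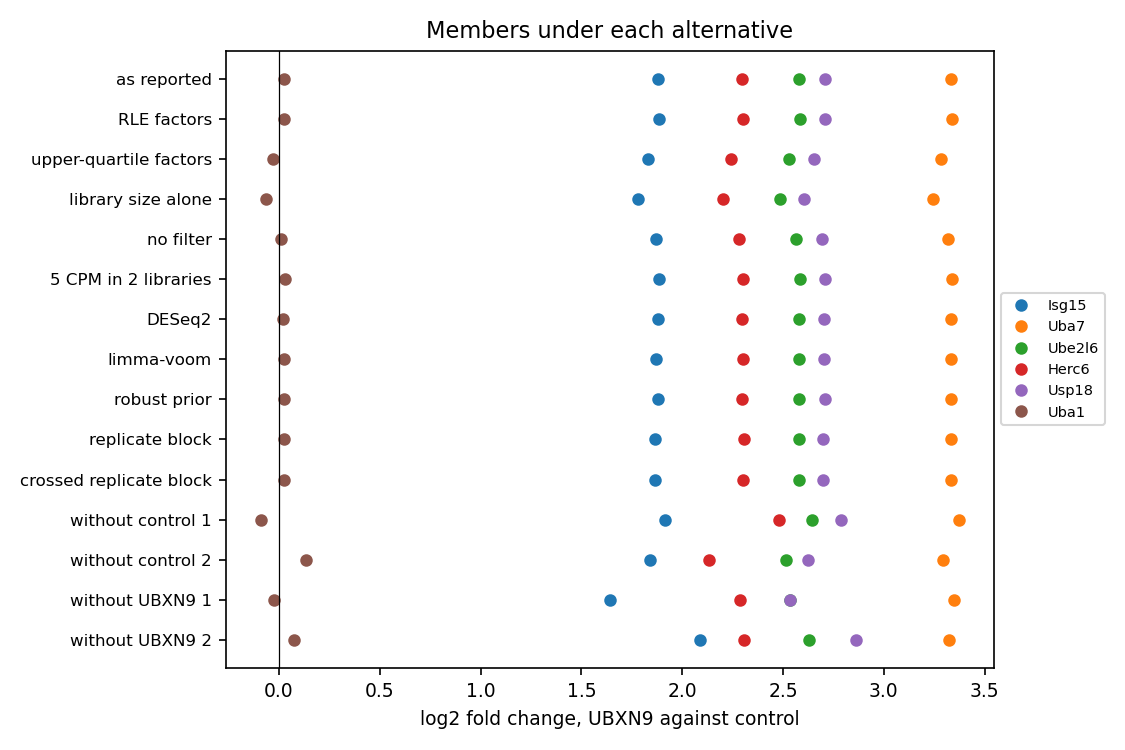
Log2 fold change of each member under the reported setting and 14 alternatives, 1 row each; points show Isg15, Uba7, Ube2l6, Herc6, Usp18 and Uba1, and without UBXN9 1 the points of Ube2l6 and Usp18 coincide at 2.53. The 5 genes of the ISG15 system keep values from 1.64 to 3.37 in every row, and Uba1 stays between -0.09 and 0.14.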

How the data were processed

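The deposited table gives estimated counts for each gene, unscaled, with 21814969 to 26292686 per library. Per the submitters' processing notes, reads were handled with HISAT2 2.1.0 and HTSeq on GRCm38.p6. Between 10.1% and 12.1% of the values in a library were not whole, and the table holds loci outside the annotation. Counting with HTSeq gives neither, so how the values were made is uncertain. Annotation, strand and treatment of multi-mapped reads are not given in the sources used here. Of 55728 entries, 241 loci outside the annotation were left out, and values were rounded to whole counts. Positions and exon lengths came from GENCODE release M21 (GRCm38), which held 55227 of 55487 annotated identifiers. Close copies of coding sequences (at least 90% identity over 100 bases) were sought with blastn 2.17.0, and promoters came from RefSeq (GRCm38.p6).

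The main test was edgeR 4.0.16 (R 4.3.3) using a two-sided quasi-likelihood test after filterByExpr and TMM scaling, with Benjamini-Hochberg adjustment over 13230 genes. Each SE is the log2 fold change over the square root of F, and 95% intervals use the moderated degrees of freedom. The fit was tested on simulated data with 2 libraries a group. It recovered 42.9% of log2 changes of 1 and 86.4% of log2 changes of 2, so a gene not called may still have changed. Of its calls at an adjusted p under 0.05, 8.2% were false. The 95% intervals held the true change for 94.4% of the changed genes. DESeq2 1.42.0 and limma 3.58.1 (voom) were alternatives.

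Members and lists were chosen with earlier results of these data known. Named genes were the members; Ube2l3, Trim25, Usp16, Herc3, Uba6, Ubd, Stat2, Irf9, Irf7, Ifnb1 and Aspscr1; up to 3 genes of smallest p per list; and the 2 genes most like each ISG15 member with at least 5 CPM in the UBXN9 group. For the latter, genes with a count of 0 were left out after the values were seen, and any others named were likewise chosen then. Some genes that this rule names are not reported here.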

Additional observations from a re-analysis of the deposited data

How the results depend on the processing

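With 2 libraries a group, the counts of calls moved with the setting, while the calls of the ISG15 genes did not. The number of changed genes was 984, and it was 1827 with no filter, 398 at an adjusted p under 0.01, 3137 with a crossed replicate block, and between 508 and 2782 with single libraries left out (lowest without control 2, highest without UBXN9 2, and 2561 without UBXN9 1). Of the 156 genes on the lists of related genes, 17 were called, against 11 with library size alone, 38 with the crossed block and between 10 and 36 with single libraries left out (lowest without control 2, highest without UBXN9 2). Of the 156 genes, 152 were deep enough to be tested, with 17 higher and 0 lower. Of all genes tested, 5.06% were called higher and 2.38% lower. The lists of type I interferon signalling and reported ISG15 targets, which share genes, had 7 higher each. The number called over all genes moved in the same direction in these settings, to 752 with library size alone. With library size alone the median of all log2 fold changes moved by -0.0899. Same-numbered libraries deviated in opposite directions (Pearson correlation -0.482), so the numbers were not taken to pair them, and the crossed block was chosen after seeing the data. The replicate block as numbered gave 932 changed genes and kept the calls of Isg15 (log2 fold change 1.87), Uba7 (3.34), Ube2l6 (2.58), Herc6 (2.31) and Usp18 (2.70). The causes were not tested. Ubd, Itgal, Usp13 and Usp2 had at most 8 counts in any library and did not pass the filter on low counts.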
